A study of Rattus norvegicus with 9 samples.

Results

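The genes described here encode the proteins of mitochondrial oxidative phosphorylation, measured in rat brain after a transient stroke. They were chosen by name: every gene symbol on the array that begins with Nduf followed by a subunit letter and number, that names one of the Sdh subunits, or that begins with Uqcr, Cox followed by 4 to 8, or Atp5. This gave 84 genes with 103 probes, of 26276 gene symbols and 30367 probes in all, and each gene was represented by its brightest probe. By complex there were 38 genes of complex I, 4 of complex II, 7 of complex III, 17 of complex IV and 18 of complex V. All but Cox8c, a testis form that was well above background on 2 Sham, 2 I/R and 1 DHI arrays, were bright enough to be tested, which left 83 genes. The rule used names and mean brightness over all arrays, so that it did not use the differences between groups.

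The tissue was the infarcted hemisphere of male Sprague Dawley rats on normal chow, taken 14 days after surgery and hybridised to 9 one-colour Agilent SurePrint G3 Rat arrays, 1 per rat and 3 per group; the age of the rats is not given in the sources used here. Sham rats had the neck artery exposed with no filament inserted, and received solvent. I/R rats (the group labelled model) had the middle cerebral artery closed by a filament for 2 h and then reopened, which leaves an infarct and a surrounding reaction. DHI rats (the group labelled DH) had the same occlusion and then daily tail vein injections of Danhong injection, a preparation of Salvia miltiorrhiza and Carthamus tinctorius, up to the day of sampling; the methods give its dose in different units in different places. An infarcted hemisphere holds infarct, border and spared tissue together. In such bulk RNA, fewer cells of a type and less RNA per cell cannot be told apart.

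Oxidative phosphorylation is the chain of inner membrane complexes that makes most of the ATP of a neuron. Complex I (NADH dehydrogenase) takes electrons from NADH and complex II (succinate dehydrogenase) takes them from succinate; both pass them through ubiquinone to complex III, then through cytochrome c to complex IV (cytochrome c oxidase), which reduces oxygen. Complexes I, III and IV pump protons, and complex V (ATP synthase) uses the gradient. Complex II pumps none, is also an enzyme of the citric acid cycle, and is built from nuclear genes alone, whereas the other complexes also hold subunits encoded by mitochondrial DNA. Probes for those mitochondrial genes were looked for by name and none matched (0 of 26), so that all values below are for nuclear genes.

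Each value is a log2 signal from which the level of the 75th percentile of that array was taken away, called here the scaled log2 signal. It compares a gene between arrays, not a gene with another gene. That percentile lay between 2569.7 and 2745.3 in Sham, 2628.7 and 3464.4 in I/R and 1816.3 and 2785.1 in DHI, no spot was saturated, and 75.2% to 78.9% of the probes of an array were well above background. A gene was called changed at an unadjusted p under 0.05 and a fold change (FC) over 1.5 in limma's moderated test over the 9 arrays, which are the limits the study used; calls at a Benjamini-Hochberg adjusted p under 0.05 are given beside them. Sham and I/R arrays shared slide 1 and the DHI arrays filled slide 2, so that slide and DHI cannot be told apart. The arrays of a group were not equal: I/R 3 lay nearer to Sham than the other I/R arrays, and DHI 1 lay among the I/R arrays.

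I/R versus Sham asks what the stroke left behind at 14 days. In I/R, 42 of the 83 genes (50.6%) fell, against 22.3% of all 23747 probes tested, and 0 rose, against 20.8% of all probes. At the adjusted p, 37 genes fell (44.6%, against 15.1% of all probes) and 0 rose (against 16.4%). The median log2 fold change of the 83 genes was -0.59, or 66.3% of the Sham level, while that of all probes was -0.10. The calls came from complex I (21 of 38), complex III (5 of 7), complex IV (10 of 16) and complex V (6 of 18), and complex II had 0 of 4. The differences between the complexes were not tested.

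Array by array, the shift was clear of the Sham spread. Taking each gene relative to its Sham mean, the median over the 83 genes was -0.01, 0.02 and -0.02 on the Sham arrays and -0.70, -0.69 and -0.40 on the I/R arrays. The lowest and the highest of these I/R arrays both lay well below every Sham array, and I/R 3 was the mildest. In the mean, 80 of the 83 genes were lower in I/R (against 54.7% of all probes) and 3 higher (against 45.3%). For 76 of the 83 genes (91.6%, against 35.8% of all probes) all 3 I/R values lay below all 3 Sham values, and for 1 gene, Atp5g2, all lay above (against 26.7% of all probes). The 38 genes of complex I, the 7 of complex III, the 16 of complex IV and the 18 of complex V had median log2 fold changes of -0.63, -0.66, -0.65 and -0.54. With no scaling between arrays the median of the 83 genes was -0.40 where that of all probes was 0.10. The calls dropped to 9 of the 83 genes, while 41.5% of all probes were still called in either direction, against 43.1% with scaling. With any 1 Sham array, I/R 1, I/R 2 or DHI 3 left out, 0 of the 83 genes passed the adjusted p, where at most 1 of all 23747 probes did.

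**Figure D1:**
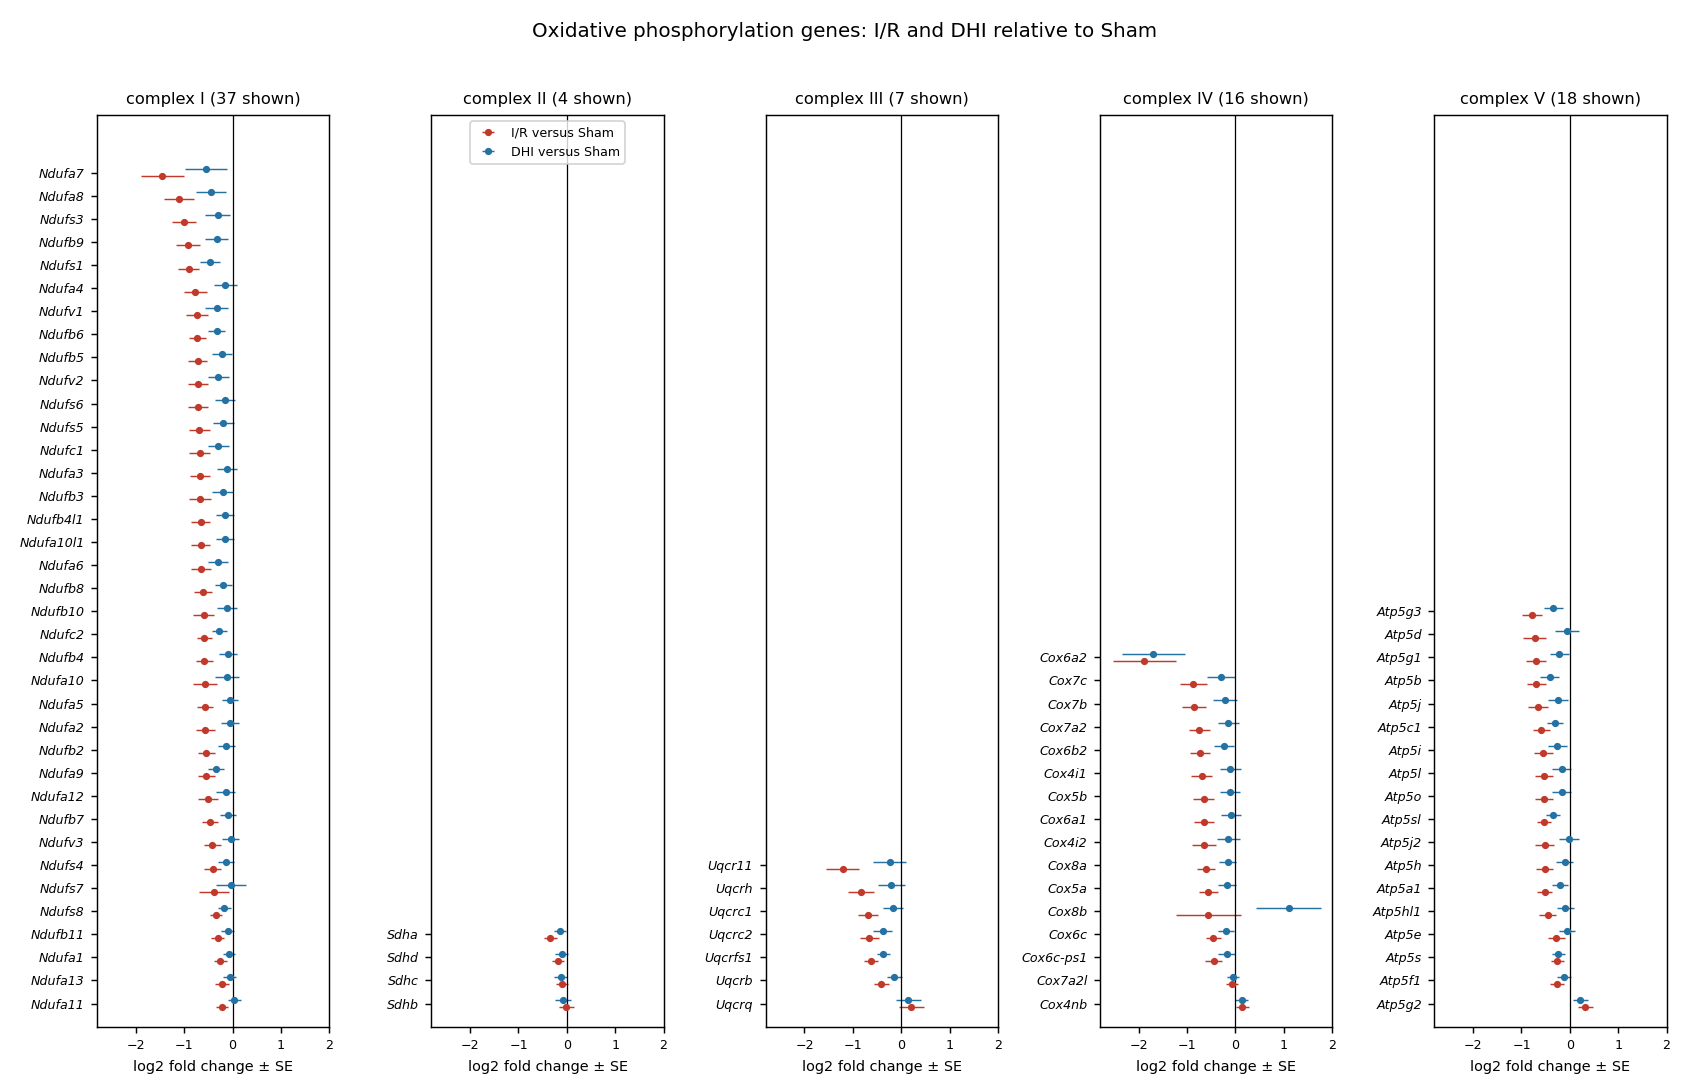
Log2 fold change ± SE (x axis) of the 83 tested genes but 1 that is not shown (y axis, sorted within its complex by the I/R value) for I/R versus Sham in red and DHI versus Sham in blue, from limma over 9 arrays. In I/R nearly all genes of complexes I, III, IV and V sit left of 0, with medians from -0.66 to -0.54, whereas the 4 Sdh genes of complex II lie between -0.34 and -0.01.

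In complex I, the largest of the chain, 21 of 38 genes fell and all 38 had a negative mean difference. Ndufs3, a core subunit of the arm that reaches into the matrix, read 3.04, 3.13 and 3.07 in Sham, 1.91, 1.94 and 2.41 in I/R, and 2.27, 3.17 and 2.89 in DHI. Every I/R array lay well below every Sham array, and DHI 1 lay inside the I/R range. The log2 fold change in I/R was -1.0 ± 0.25 (SE, n = 3 per group, adjusted p = 0.0396), about 50.1% of the Sham level.

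Ndufs1, the largest core subunit, which carries iron-sulfur clusters next to the NADH site, read 2.45, 2.71 and 2.52 in Sham, 1.44, 1.52 and 1.99 in I/R, and 1.79, 2.37 and 2.15 in DHI. It fell by 0.91 on the log2 scale (adjusted p = 0.0396). Its partners in the NADH-oxidising module, Ndufv1 and Ndufv2, fell as well: Ndufv1 by 0.74 (adjusted p = 0.0442) and Ndufv2 by 0.72 (adjusted p = 0.0418). Of the core subunits that lead electrons to ubiquinone, Ndufs7 and Ndufs8 did not pass: Ndufs7 had a log2 fold change of -0.39 ± 0.31 and Ndufs8, with an unadjusted p = 0.0274, one of -0.34 ± 0.13, which is under the FC limit. The means of both lay below Sham, as did those of the core genes that were called.

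The accessory subunits, which surround and stabilise the core, held the largest falls of the complex. Ndufa7 read -0.35, -0.27 and -0.24 in Sham, -2.51, -1.92 and -0.78 in I/R, and -1.46, -0.49 and -0.57 in DHI. I/R 1 and I/R 2 were far below Sham while I/R 3 stood closer to the Sham values, a spread of 0.88 (SD) within the group. The log2 fold change was -1.45 ± 0.44 (adjusted p = 0.0428), 36.6% of the Sham level. Ndufa8 fell by 1.1 and Ndufb9 by 0.92. Ndufa4, which is counted with complex I by its name although the protein is known to sit in complex IV, read 4.48, 4.48 and 4.43 in Sham, 3.46, 3.58 and 4.03 in I/R, and 3.87, 4.65 and 4.42 in DHI and fell by 0.77. At the other end, Ndufa13 and Ndufa11 had log2 fold changes of -0.22 ± 0.14 and -0.22 ± 0.13, with 95% intervals of -0.53 to 0.1 and -0.53 to 0.08.

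Complex II gave 0 calls of 4. Sdhb, the iron-sulfur subunit, read 2.47, 2.52 and 2.53 in Sham, 2.7, 2.5 and 2.28 in I/R, and 2.32, 2.57 and 2.37 in DHI. The groups overlapped, and I/R 1 was the highest of the 9 arrays. The log2 fold change in I/R was -0.01 ± 0.16, with a 95% interval of -0.37 to 0.35. Sdhc, one of the membrane anchors, read 1.79, 1.81 and 1.8 in Sham, 1.78, 1.75 and 1.56 in I/R, and 1.68, 1.74 and 1.58 in DHI, for a log2 fold change of -0.1 ± 0.13 (95% interval -0.41 to 0.2). The other anchor, Sdhd, had -0.18 ± 0.13 (95% interval -0.47 to 0.11).

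Sdha, the flavoprotein that oxidises succinate, read 2.76, 2.95 and 2.94 in Sham, 2.62, 2.45 and 2.56 in I/R, and 2.69, 2.8 and 2.73 in DHI. All I/R values were below all Sham values, and the log2 fold change was -0.34 ± 0.13 (unadjusted p = 0.0337, adjusted p = 0.0757), less than the FC limit. The median difference over the 83 genes (-0.59) lies outside the 95% intervals of Sdhb, Sdhc and Sdhd and inside that of Sdha (-0.65 to -0.03). The probes of Sdha, Sdhb, Sdhc and Sdhd lie at chr1:29763988-29764047, chr5:159839597-159839656, chr13:87014610-87014669 and chr8:53955238-53955297 of rn4, the build of the files. The median of the 4 genes was -0.14 with the 75th percentile scaling, -0.03 with quantile normalization and 0.05 with no scaling, so that its sign depended on the scaling, while each stayed above the median of the 83 genes under the same scaling.

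**Figure D2:**
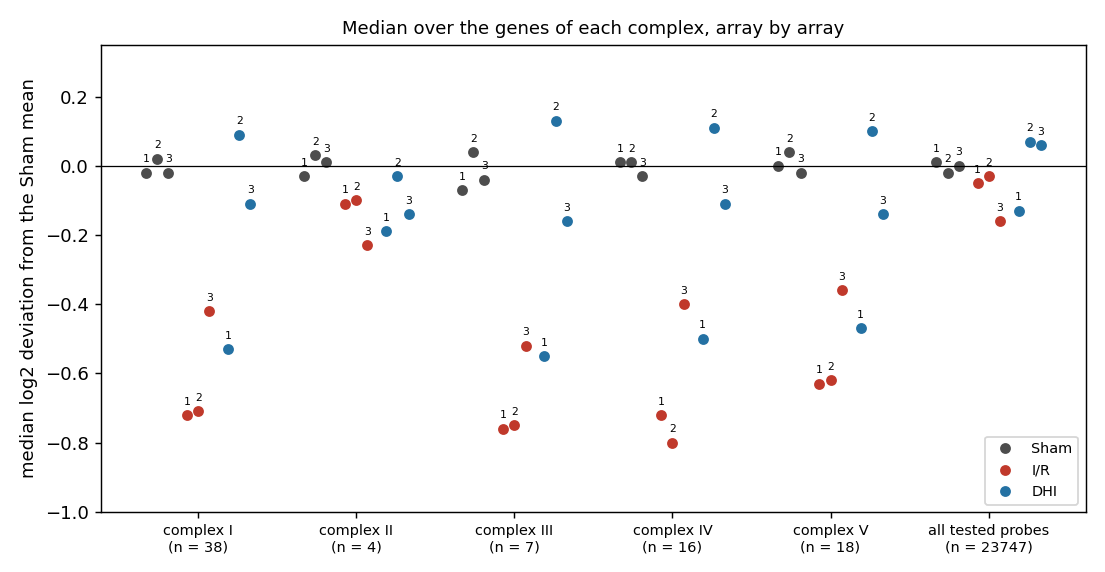
Median over the genes of each complex, and over all tested probes, of the log2 deviation from the Sham mean of the gene (y axis), with 1 point per array, numbered by replicate and coloured by group. I/R arrays lie between -0.80 and -0.36 for complexes I, III, IV and V and between -0.23 and -0.10 for complex II; DHI 1 lies near the I/R arrays and DHI 2 at or above Sham in every complex but II.

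In complex III, which hands electrons from ubiquinol to cytochrome c, 5 of 7 genes fell. Uqcr11, a small membrane subunit, read 5.16, 5.16 and 5.03 in Sham, 3.58, 3.69 and 4.45 in I/R, and 4.2, 5.4 and 5.01 in DHI. Its log2 fold change was -1.21 ± 0.34 (adjusted p = 0.0405), 43.2% of the Sham level, with no overlap between Sham and I/R. Uqcrfs1, the Rieske iron-sulfur protein, read 2.88, 3.08 and 2.96 in Sham, 2.28, 2.38 and 2.41 in I/R, and 2.5, 2.71 and 2.62 in DHI. It fell by 0.62 with little spread in any group and had the smallest p of all 83 genes (unadjusted p = 0.0018, adjusted p = 0.0396). Uqcrh, the hinge protein near cytochrome c1, fell by 0.83. The core proteins Uqcrc1 and Uqcrc2 fell by 0.69 and 0.66. Uqcrb had -0.41 ± 0.15 and was not called. Uqcrq, dim on the array with a mean of -3.13 in Sham, read -2.91, -3.14 and -3.34 in Sham, -2.65, -2.63 and -3.49 in I/R, and -3.12, -3.0 and -2.83 in DHI and overlapped between the groups (0.21 ± 0.26).

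In complex IV, the oxygen-consuming complex, 10 of 16 genes fell. Cox4i1, the common form of subunit 4, read 6.07, 6.08 and 6.03 in Sham, 5.36, 5.29 and 5.44 in I/R, and 5.47, 6.35 and 6.04 in DHI. It fell by 0.70 (adjusted p = 0.0453), with all I/R values well under Sham and only 0.08 (SD) between the I/R arrays. Cox7b fell by 0.85, Cox7c by 0.87, Cox7a2 by 0.75, Cox6b2 by 0.73, Cox5b by 0.66, Cox6a1 by 0.65 and Cox8a by 0.61. Cox5a, at -0.56 ± 0.19 (unadjusted p = 0.0176), was just under the FC limit. Cox4i2, the form of subunit 4 known for its response to low oxygen, read 0.41, 0.34 and 0.28 in Sham, -0.37, -0.5 and -0.06 in I/R, and -0.31, 0.58 and 0.31 in DHI. It fell by 0.65, and its distance from Cox4i1 moved by 0.05 ± 0.15 (SD, n = 3) from Sham to I/R, so that these forms shifted by the same amount within the spread.

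Cox6a2, the muscle form of subunit 6a, which in brain is known from parvalbumin interneurons, had the largest fall of all 83 genes. It read 0.36, 2.13 and 1.32 in Sham, 0.06, -0.48 and -1.44 in I/R, and -0.96, 0.79 and -1.13 in DHI. The Sham arrays themselves spread over more than 1 log2 unit, with Sham 1 close to I/R 1. The log2 fold change was -1.89 ± 0.65 (unadjusted p = 0.0202, adjusted p = 0.0561), 27.0% of the Sham level, and the call was lost without Sham 2 (-1.46) or without I/R 3 (-1.48). Relative to Cox6a1 it moved by -1.24 ± 0.91 (SD) in I/R and by -1.62 ± 0.84 in DHI, against a spread of 0.92 in Sham. The parvalbumin interneuron markers gave 5 of 6 lower, and the muscle markers (Myh6, Mb, Tnni2, Acta1, Tnnt3, Ckm, Myl1 and Myh4) 0 lower and 1 higher of 8; their part in the Cox6a2 values was not tested. The probe of Cox6a2 lies at chr1:187464580-187464639 (rn4).

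Some names taken by the rule do not encode a subunit. Cox7a2l, a factor for joining complexes III and IV, read 4.07, 4.02 and 4.09 in Sham, 4.08, 3.97 and 3.9 in I/R, and 3.89, 4.13 and 4.01 in DHI, and had a log2 fold change of -0.07 ± 0.13 (95% interval -0.38 to 0.23). Cox4nb, called Emc8 in RefSeq and part of a complex of the endoplasmic reticulum, had 0.14 ± 0.13. Atp5s and Atp5sl, called Dmac2l and Dmac2 in RefSeq, had -0.26 ± 0.13 and -0.53 ± 0.14. Cox6c-ps1, a pseudogene by its name, had -0.45 ± 0.18 beside -0.46 ± 0.16 for Cox6c; whether its probe also takes up Cox6c RNA was not tested. None of these 5 was called. Ndufa10l1, Ndufb4l1 and Atp5hl1, named after Ndufa10, Ndufb4 and Atp5h, were counted as genes of their own. Ndufa10l1 (-0.66 ± 0.19) and Ndufb4l1 (-0.66 ± 0.19) were called lower, and Atp5hl1 (-0.46 ± 0.17) was not. Whether their probes also take up RNA of the genes they are named after was not tested.

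**Figure D3:**
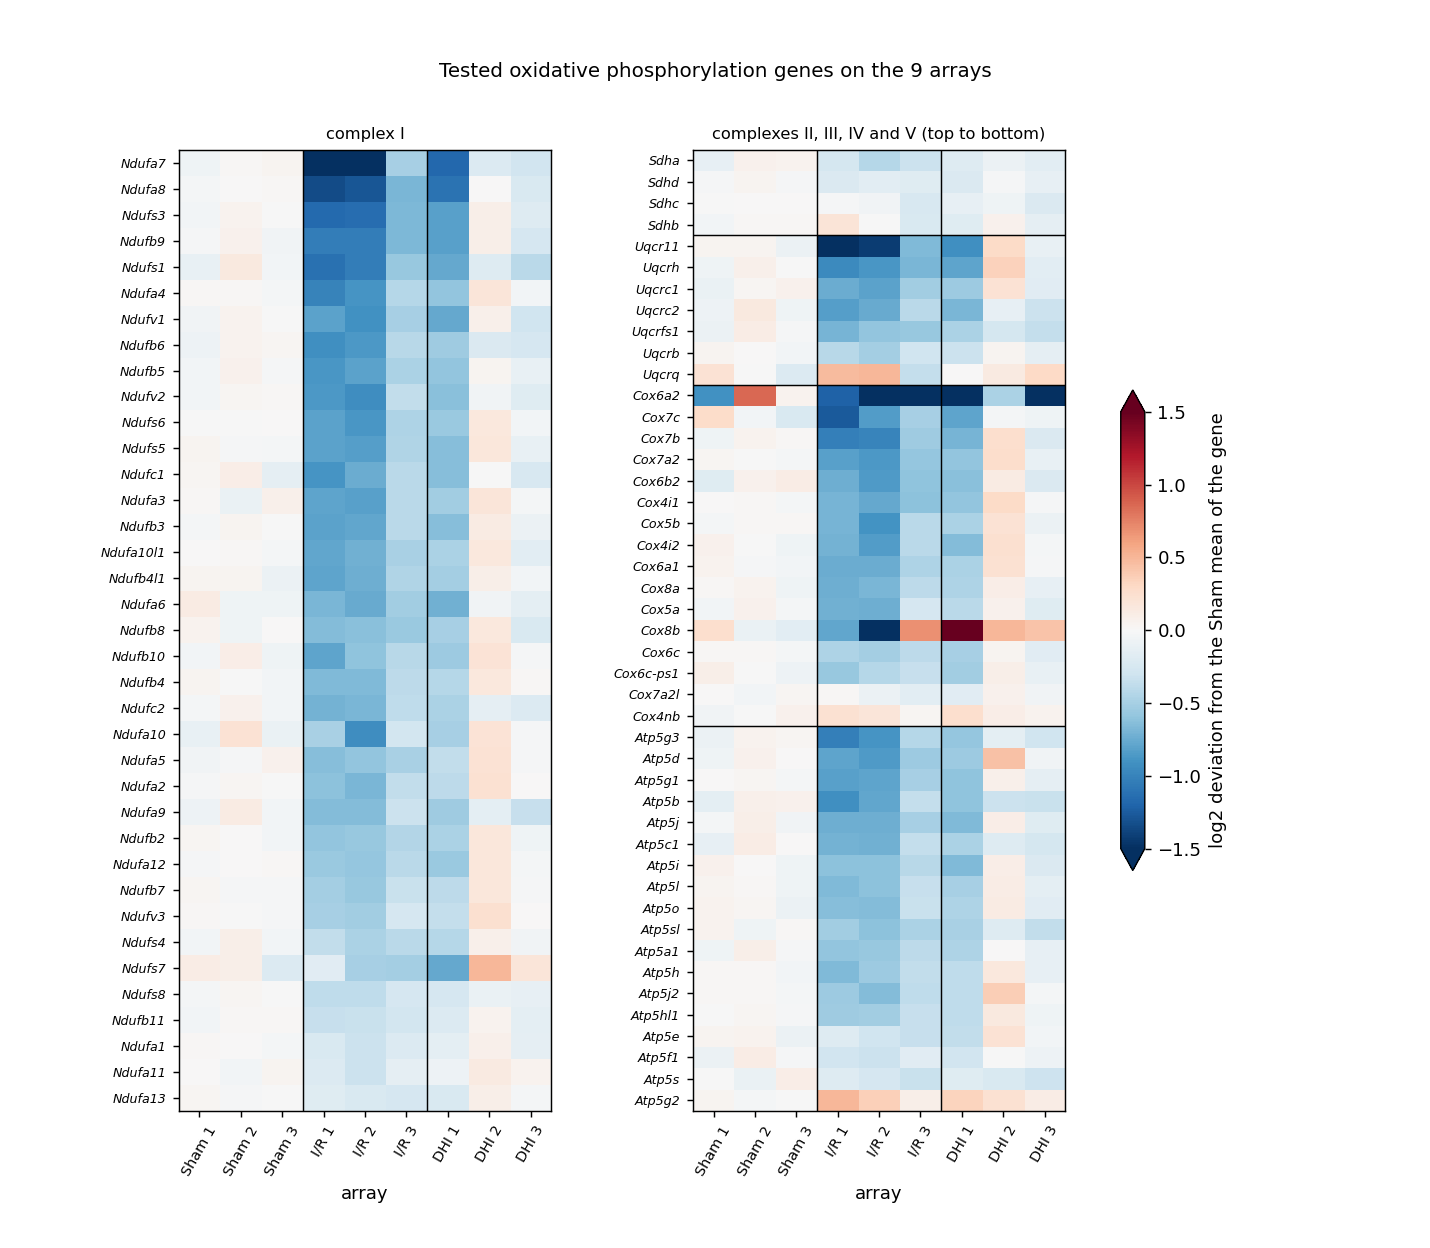
Log2 deviation from the Sham mean (colour, blue lower and red higher, cut at ± 1.5) of the 83 tested genes but 1 that is not shown (rows, sorted within each complex by the I/R value) on the 9 arrays (columns). The I/R 1 and I/R 2 columns are the darkest blue, and I/R 3 and DHI 1 are paler. The 4 Sdh genes at the top of the right panel stay near white. Atp5g2, at the bottom, lies above its Sham mean on all I/R and DHI arrays, but near white on I/R 3 and DHI 3.

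In complex V, 6 of 18 genes fell, and Atp5i, Atp5l and Atp5o of its membrane part and stalk came close to the FC limit, at -0.55 ± 0.2, -0.54 ± 0.19 and -0.54 ± 0.19. Of the catalytic head, the beta subunit Atp5b read 2.6, 2.82 and 2.81 in Sham, 1.82, 1.96 and 2.39 in I/R, and 2.14, 2.42 and 2.41 in DHI and fell by 0.69 (adjusted p = 0.0404). The alpha subunit Atp5a1 had -0.52 ± 0.16 (adjusted p = 0.0454), which passes the adjusted p but not the FC limit. The gamma subunit Atp5c1 fell by 0.59 and the delta subunit Atp5d by 0.73. Atp5j fell by 0.66.

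Subunit c, which forms the rotating ring in the membrane, is made from the 3 genes Atp5g1, Atp5g2 and Atp5g3, whose mature proteins are the same. Atp5g3 read 4.06, 4.2 and 4.17 in Sham, 3.12, 3.26 and 3.72 in I/R, and 3.56, 4.0 and 3.84 in DHI and fell by 0.78 (adjusted p = 0.0396). Atp5g1 read 4.71, 4.73 and 4.67 in Sham, 3.89, 3.91 and 4.21 in I/R, and 4.1, 4.78 and 4.57 in DHI and fell by 0.70 (adjusted p = 0.0407). Atp5g2 read 4.62, 4.55 and 4.57 in Sham, 5.08, 4.94 and 4.67 in I/R, and 4.91, 4.81 and 4.69 in DHI. Here all I/R values lay above all Sham values, with a log2 fold change of 0.32 ± 0.15 (95% interval -0.04 to 0.67, unadjusted p = 0.0718), which is no call. The distance of Atp5g2 from Atp5g3 moved by 1.52, 1.24 and 0.51 on the I/R arrays and by 0.91, 0.37 and 0.41 on the DHI arrays, against 0.13, -0.09 and -0.03 in Sham. Atp5g1 against Atp5g3 moved by 0.08 ± 0.14 (SD) in I/R. A second, nearly as bright probe of Atp5g2 gave -0.07 in I/R, so that the height of Atp5g2 rested on its brightest probe, at chr7:141412893-141412952 (rn4), although neither probe showed a fall of the size of Atp5g1 or Atp5g3.

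Several probes of a gene mostly pointed the same way. Of the 17 genes with more than 1 tested probe, 15 had the same sign in I/R on every probe and 4 differed by more than 0.5 log2 between probes. The exceptions in sign were Atp5g2 and Ndufv3, whose dimmest probe gave 0.65 where the others gave -0.42 and -0.51. That dimmest probe (unadjusted p = 0.0218 in limma) would be called higher. The count of 0 genes that rose in I/R therefore holds for the brightest probe of each gene. A dimmer probe of Atp5d gave -1.57, one of Uqcrb -1.1 and one of Ndufs4 -1.06, in each case further below 0 than the brightest probe.

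**Figure D4:**
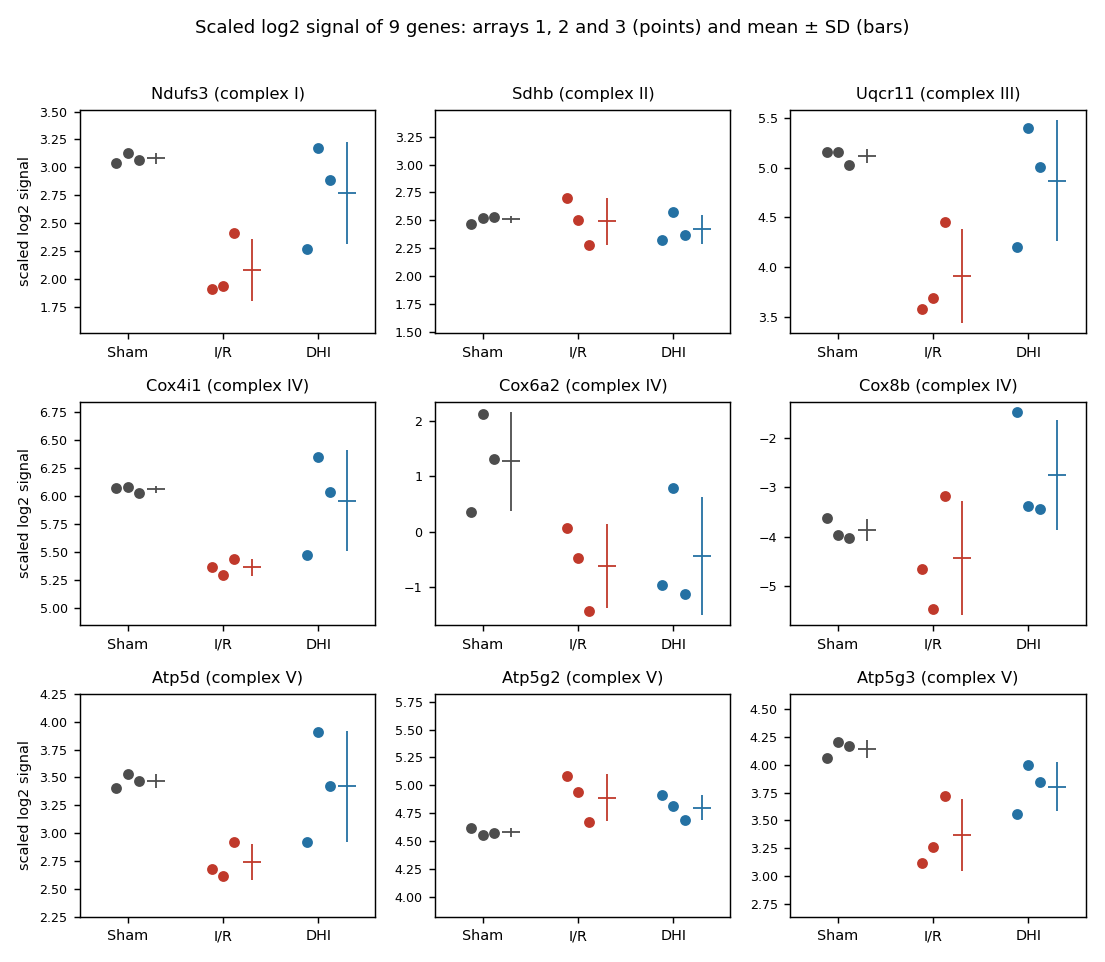
Scaled log2 signal (y axis, spanning at least 2 units in each panel) of 9 genes in Sham, I/R and DHI (x axis), with the points for arrays 1, 2 and 3 from left to right and a bar for the mean ± SD. Ndufs3, Uqcr11, Cox4i1, Atp5d and Atp5g3 are lower on all I/R arrays than in Sham, Sdhb overlaps, Atp5g2 is higher, and Cox6a2 in all groups and Cox8b in I/R and DHI spread over more than 1 unit.

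Promoters are shown for 6 genes, with each complex included, some called lower in I/R and some not called. Sequences are the 300-base windows of RefSeq (GRCr8), 5′ to 3′ on the strand of the gene, around the annotated gene start. Capitals mark matches, on either strand, to the sites of factors known from mitochondrial promoters: GCGCA and GCGC with any base between them for NRF1, CCGGAAGT for the ETS family, AAGATGGCG for YY1 and TCAAGGTCA for the estrogen-related receptors (ERR). Ndufs1 (chr9:72073556-72073855, minus strand), Uqcrc1 (chr8:118467973-118468272, plus), Cox5b (chr9:46417587-46417886, plus) and Atp5c1 (chr17:73333435-73333734, plus) were called lower in I/R, while Sdha (chr1:30764303-30764602, plus) and Atp5g2 (chr7:135678169-135678468, minus) were not.
Ndufs1: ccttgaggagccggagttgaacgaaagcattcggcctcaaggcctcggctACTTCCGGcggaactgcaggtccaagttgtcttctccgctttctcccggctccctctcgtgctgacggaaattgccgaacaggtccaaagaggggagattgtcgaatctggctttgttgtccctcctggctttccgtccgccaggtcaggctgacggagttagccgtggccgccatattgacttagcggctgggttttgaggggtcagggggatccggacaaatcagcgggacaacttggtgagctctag
Sdha: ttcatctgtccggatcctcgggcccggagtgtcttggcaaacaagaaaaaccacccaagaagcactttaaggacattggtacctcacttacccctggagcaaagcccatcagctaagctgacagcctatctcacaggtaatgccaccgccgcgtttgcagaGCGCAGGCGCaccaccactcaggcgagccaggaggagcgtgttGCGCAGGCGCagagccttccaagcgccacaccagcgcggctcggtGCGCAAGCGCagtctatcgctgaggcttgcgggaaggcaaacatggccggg
Uqcrc1: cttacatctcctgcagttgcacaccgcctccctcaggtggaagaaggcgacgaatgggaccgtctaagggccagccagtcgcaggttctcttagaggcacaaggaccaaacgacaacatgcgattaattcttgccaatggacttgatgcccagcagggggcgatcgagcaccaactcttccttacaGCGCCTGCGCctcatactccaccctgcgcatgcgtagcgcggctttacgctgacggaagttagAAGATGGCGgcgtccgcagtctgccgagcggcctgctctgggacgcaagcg
Cox5b: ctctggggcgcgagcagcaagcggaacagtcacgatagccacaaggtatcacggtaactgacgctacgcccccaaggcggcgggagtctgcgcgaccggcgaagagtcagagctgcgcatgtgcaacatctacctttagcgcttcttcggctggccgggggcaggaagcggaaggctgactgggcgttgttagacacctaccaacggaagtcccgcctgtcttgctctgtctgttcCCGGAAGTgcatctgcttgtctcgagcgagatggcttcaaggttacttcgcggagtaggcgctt
Atp5c1: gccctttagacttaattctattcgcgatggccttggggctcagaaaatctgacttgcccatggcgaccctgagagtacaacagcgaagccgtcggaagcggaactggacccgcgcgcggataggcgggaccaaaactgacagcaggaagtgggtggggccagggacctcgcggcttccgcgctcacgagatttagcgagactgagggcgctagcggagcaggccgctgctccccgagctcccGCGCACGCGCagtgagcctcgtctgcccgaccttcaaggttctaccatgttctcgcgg
Atp5g2: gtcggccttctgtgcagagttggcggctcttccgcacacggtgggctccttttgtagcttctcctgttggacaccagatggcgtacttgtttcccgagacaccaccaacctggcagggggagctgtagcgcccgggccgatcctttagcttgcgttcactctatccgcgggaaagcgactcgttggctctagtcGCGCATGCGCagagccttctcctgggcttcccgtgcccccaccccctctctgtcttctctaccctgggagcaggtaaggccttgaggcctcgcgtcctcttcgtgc
Ndufs1 and Cox5b carry an ETS match, Atp5c1 and Atp5g2 an NRF1 match, Uqcrc1 an NRF1 match and a YY1 match next to the start, and Sdha 3 NRF1 matches. All 6 windows shown carry a match, which is not typical of the members. Any of the 4 motifs stood in 27 of the 63 windows found, and in 2 of 13 windows of complex IV. Whether the matches bear on the falls was not tested.

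Promoter windows were found for 63 of the 84 genes. NRF1 matches stood in 12 of them (19%, against 4.67% of all 27457 windows of the table), ETS matches in 7 (11.1%, against 4.02%), YY1 matches in 8 (12.7%, against 1.92%) and ERR matches in 1, Sdhd (1.59%, against 0.397%). Any of the 4 stood in 27 (42.9%, against 10.1%), and the median GC content was 57% against 52.3%. Among genes called lower in I/R, 10 of 29 windows had any match (34.5%) and among tested genes not called 17 of 33 (51.5%). For NRF1 alone these were 3 of 29 and 9 of 33. A match is a run of letters, not a shown binding site.

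Other mitochondrial genes gave a mixed picture. The lists named next were put together from general knowledge, and their counts stand against the 22.3% of all probes that were lower and the 20.8% that were higher in I/R. Among electron carriers and subunits outside the name rule, 8 of 17 fell (47.1%) and 0 rose in I/R, with a median log2 fold change of -0.56. Cytochrome c, Cycs, which carries electrons from complex III to IV, read 4.1, 4.39 and 4.23 in Sham, 2.78, 2.87 and 3.58 in I/R, and 3.29, 4.26 and 3.86 in DHI and fell by 1.16 (adjusted p = 0.0396). Cyc1, the cytochrome of complex III, fell by 0.67 and Ndufab1, the acyl carrier of complex I, by 0.89. Etfa, which feeds electrons from fat oxidation to ubiquinone, had the highest value of the list, 0.6 ± 0.27, with no call.

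Of 16 enzymes of the citric acid cycle and pyruvate dehydrogenase, 9 fell (56.2%) and 1 rose, with a median of -0.61. Idh3a, of the isocitrate dehydrogenase that makes NADH, read 0.16, 0.2 and 0.36 in Sham, -1.44, -1.2 and -0.42 in I/R, and -0.87, 0.31 and 0.12 in DHI and fell by 1.26 (adjusted p = 0.0407). The one that rose was Suclg2, the GTP-forming subunit of succinyl-CoA ligase, by 0.95 ± 0.33 (adjusted p = 0.0566), while its ATP-forming counterpart Sucla2 fell by 0.97. Cs, the gene of citrate synthase, an enzyme often used as a measure of mitochondrial mass, read 1.54, 1.57 and 1.5 in Sham, 1.69, 1.55 and 1.42 in I/R, and 1.3, 1.94 and 1.63 in DHI, for a log2 fold change of 0.02 ± 0.18. These are RNA values, and neither the enzyme nor mitochondrial mass was measured. The Cs values of the groups overlapped.

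Among 25 assembly factors, 6 fell (24%, near the share of all probes) and 1 rose (4%), with a median of -0.37, from Ttc19 of complex III at -1.43 ± 0.4 to Cox16 of complex IV at 0.73 ± 0.29. Of 18 genes for mitochondrial import, carriers and channels, 3 fell (16.7%, under the share of all probes) and 0 rose, with a median of -0.47. The ADP/ATP carrier Slc25a4 fell by 1.14 and the outer membrane channel Vdac1 by 0.82, while Phb2, of the prohibitin complex, had 0.24 ± 0.14.

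Of the regulators of mitochondrial biogenesis, 4 of 16 were lower (25%) and 3 higher (18.8%), both near the shares of all probes, with a median of 0.06. Ppargc1a, the coactivator PGC-1alpha, read -2.45, -2.08 and -2.24 in Sham, -4.82, -4.22 and -3.47 in I/R, and -4.16, -1.93 and -2.42 in DHI and fell by 1.91 (adjusted p = 0.0423). Esrrg, a nuclear receptor that it works with, was well above background on all 3 Sham arrays and on no I/R array. Only a bound can be given, of at least 3.97-fold lower in I/R. The floor was the lowest signal well above background on each I/R array. Esrrg is counted among the 4, but passed the filter only through Sham, where it was high, so that a fall was favoured in advance. Its relative Esrra fell by 0.73. Nrf1, the factor whose motif was counted above, read -3.41, -3.71 and -3.78 in Sham, -2.58, -2.44 and -3.07 in I/R, and -2.94, -3.35 and -3.09 in DHI and rose by 0.93 ± 0.21 (adjusted p = 0.0396). Polg2, a subunit of the mitochondrial DNA polymerase, had the largest rise, 0.95 ± 0.29. Tfam, which packages mitochondrial DNA, had 0.1 ± 0.13 and was not called.

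Of 5 tested uncoupling proteins and inhibitors of ATP synthase, 3 fell and 1 rose. Ucp2, abundant in phagocytes, read -3.39, -3.56 and -3.44 in Sham, 0.33, -0.16 and -1.19 in I/R, and -0.4, -3.39 and -2.92 in DHI and rose by 3.12 ± 0.74 (adjusted p = 0.0396). Slc25a27, an uncoupling protein known from neurons, was well above background on all 3 Sham arrays but on none in I/R. By the floor used for Esrrg its fall was at least 3.16-fold. It is counted among the 3, but also passed the filter only through Sham, where it was high. Atpif1, the inhibitor of complex V, fell by 0.66.

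Markers of neurons and of microglia moved by more than these genes, while those of oligodendrocytes, endothelial cells and pericytes had medians of 0.04, 0.19 and 0.12. All 12 neuron markers fell in I/R (median -2.54); their summed signal was 95% to 105% of the Sham mean in Sham, 9.80% to 50.1% in I/R and 32.5% to 107% in DHI. Snap25, a protein of the synapse, read 4.52, 5.26 and 5.0 in Sham, 0.8, 1.36 and 3.61 in I/R, and 2.96, 4.75 and 4.15 in DHI. Of the 9 microglia and macrophage markers, 8 rose (median 3.60), and the summed signal was 90.4% to 106% in Sham, 608% to 1710% in I/R and 121% to 917% in DHI. Astrocyte markers gave 2 lower and 4 higher of 8 (summed 98.4% to 103%, 87.5% to 111% and 84.6% to 98.8%), with Gfap at 3.63 ± 0.67. Oligodendrocyte markers gave 0 calls of 7 (summed 93.7% to 109%, 72.7% to 106% and 101% to 130%).

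Parvalbumin interneuron markers summed to 93.6% to 109% in Sham, 8.43% to 25.1% in I/R and 16.9% to 104% in DHI. Endothelial markers gave 3 higher of 8 and pericyte and smooth muscle markers 3 higher of 9, with 0 lower in both. Red blood cell genes gave 4 lower and 1 higher of 5, with Sham arrays from 22.1% to 185% of their mean. Every neuron, astrocyte, microglia and oligodendrocyte marker was well above background on every array, as brain tissue should show. The arrays with the lowest oxidative phosphorylation genes, I/R 1 and I/R 2, were also those with the least neuronal and the most microglial signal. The part of these cell types in the fall of the oxidative phosphorylation genes was not tested.

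**Figure D5:**
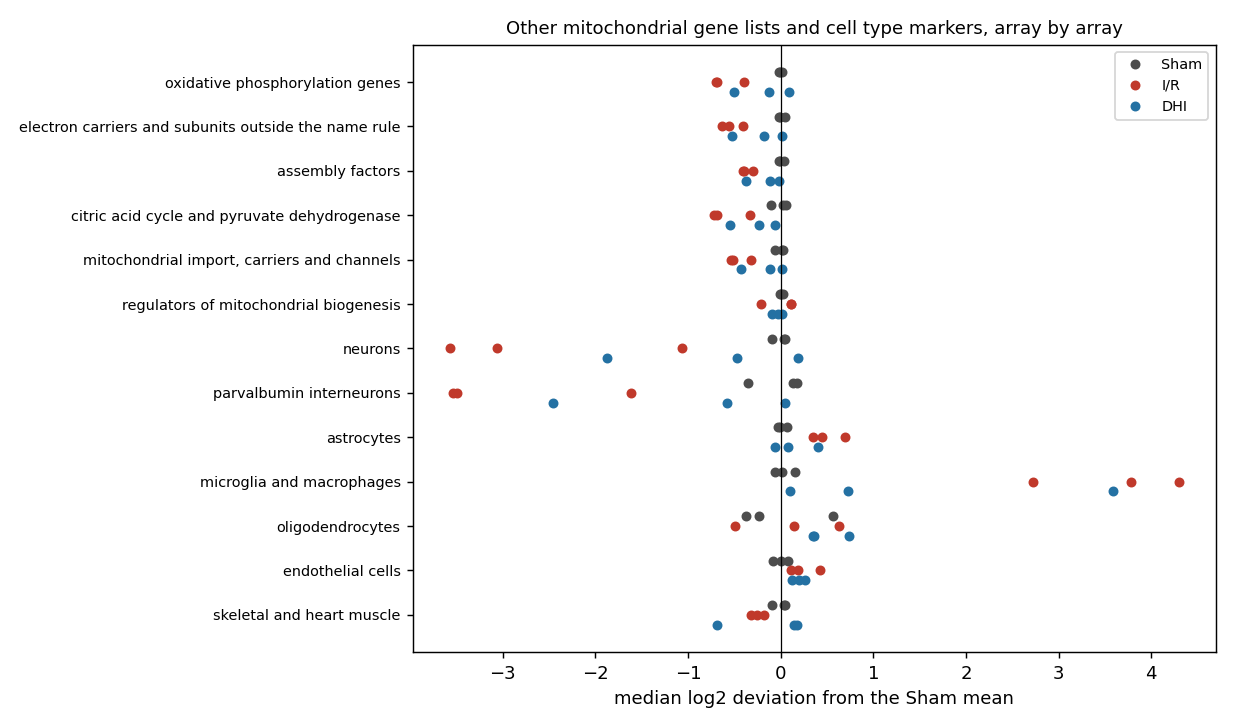
Median log2 deviation from the Sham mean (x axis) of the oxidative phosphorylation genes, of other mitochondrial lists and of cell type markers (y axis), with 1 point per array coloured by group. On the I/R arrays neuron markers lie between -3.57 and -1.06 and microglia markers between 2.72 and 4.30, while the oxidative phosphorylation genes lie between -0.70 and -0.40 and regulators of biogenesis between -0.21 and 0.11.

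DHI versus I/R asks whether the treated rats differed from the untreated ones after the same occlusion. It shares the I/R arrays with the comparison above, so that their directions are not independent. Of the 83 genes, 10 were higher in DHI (12%), which is near the 11.5% of all probes, and 0 were lower, against 10.5% of all probes. At the adjusted p, 0 genes passed (0% of all probes were higher and 0.00421% lower); the adjusted p of the 10 genes was 0.196 in limma. The median log2 fold change was 0.40, against 0.10 for all probes, with 0.42 for complex I, 0.02 for complex II, 0.28 for complex III, 0.50 for complex IV and 0.34 for complex V. These differences between complexes were not tested.

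The treated arrays were unlike each other. The median over the 83 genes relative to the Sham mean was -0.50 on DHI 1, 0.09 on DHI 2 and -0.13 on DHI 3, so that DHI 1 lay between I/R 3 (-0.40) and I/R 2 (-0.69). Neuron markers followed the same order, with -1.87, 0.19 and -0.47, and microglia markers the opposite one, with 3.59, 0.10 and 0.73. In the mean, 78 of the 83 genes were higher in DHI than in I/R (against 56.9% of all probes) and 5 lower (against 43.1%). In 10 genes (12%, against 5.52% of all probes) all DHI values lay above all I/R values, and in 0 below (against 4.03%). Of these, 6 were of complex I and 1 each of complexes II, III, IV and V. They are not the same set as the 10 genes called higher, most of which overlapped with I/R.

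The 10 genes called higher in DHI belonged to complex I (Ndufa4, Ndufb9 and Ndufs3), complex III (Uqcr11 and Uqcrh), complex IV (Cox4i1, Cox7a2, Cox7b and Cox8b) and complex V (Atp5d). Uqcr11, with the values given above, had 0.97 ± 0.34 (unadjusted p = 0.0213), 195% of the I/R level. Ndufs3 had 0.69 ± 0.25 (unadjusted p = 0.0247) and Cox4i1 0.59 ± 0.22 (unadjusted p = 0.0272); for Cox4i1 even DHI 1, at 5.47, was just above the highest I/R array, at 5.44. Atp5d, which read 3.41, 3.53 and 3.47 in Sham, 2.68, 2.62 and 2.92 in I/R, and 2.92, 3.91 and 3.42 in DHI, had 0.68 ± 0.24. DHI 2 was the highest of all 9 arrays for Atp5d and DHI 1 equalled I/R 3.

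Ndufb9, Ndufa4, Cox7a2, Cox7b and Uqcrh had log2 fold changes between 0.59 and 0.64. The Sdh genes lay between -0.07 (Sdhb) and 0.2 (Sdha), with 95% intervals of -0.43 to 0.29 and -0.11 to 0.5. Atp5g2 had -0.09 ± 0.15, the lowest of complex V. In complex I the largest difference was that of Ndufa7, 0.89 ± 0.44 (unadjusted p = 0.0745), which was no call, and the smallest that of Ndufa13, 0.16 ± 0.14.

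Cox8b, the muscle form of subunit 8, had the largest difference of the 83 genes. It read -3.61, -3.96 and -4.02 in Sham, -4.64, -5.45 and -3.18 in I/R, and -1.48, -3.37 and -3.43 in DHI. DHI 1 stood alone at the top, and I/R 1 and I/R 2 at the bottom. The log2 fold change was 1.66 ± 0.67 (unadjusted p = 0.0377), and without DHI 1 it was 1.03 with no call. The summed signal of the muscle markers was 58.5% of the Sham mean on DHI 1, the lowest of the 9 arrays, and 84.3% to 129% on the Sham arrays. Of these 8 markers, 0 to 2 were at background on an array, with 2 on DHI 1. Their part in the Cox8b values was not tested. The ubiquitous form, Cox8a, had 0.44 ± 0.18. The Cox8b probe lies at chr1:201057325-201057384 (rn4).

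The count of 10 hung on single arrays. Without DHI 1 it was 38, of which 37 passed the adjusted p (45.2% of all probes were called there in either direction), and without I/R 3 it was 27 (32.5% of all probes). Without I/R 1 or I/R 2 it was 0 (5.82% and 6.99% of all probes), without DHI 2 or DHI 3 it was 1 (3.95% and 4.75%), and without any 1 Sham array it was 6 (16% to 16.5%). With only the DHI and I/R arrays in the model it was also 0 (9.05% of all probes). With no scaling it was 0 (31.3%), and the median of the 83 genes was -0.06 where that of all probes was -0.36.

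In DHI versus I/R, 5.88% to 12.5% of the genes in the other mitochondrial lists apart from the uncoupling genes were called higher, against 11.5% of all probes. Electron carriers gave 1 higher of 17 (Cycs, 0.73 ± 0.3), the citric acid cycle 1 of 16 (Idh3a, 0.87 ± 0.36), assembly factors 2 of 25 (Ttc19 and Atpaf1), import and carriers 2 of 18 (Vdac1 and Slc25a4) and the regulators 2 of 16 (Ppargc1a, 1.33 ± 0.57, and Esrrg, which was well above background on no I/R array and 1 DHI array and is given no fold), with 0 lower in these lists. Among the uncoupling genes Slc25a27, well above background on 0 I/R and 2 DHI arrays, was called higher and Ucp2 lower. Neuron markers gave 10 higher of 12 and microglia markers 7 lower of 9, with medians of 1.86 and -2.42; none of these passed the adjusted p.

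DHI versus Sham asks how far the treated brains were from the uninjured ones. Of the 83 genes, 1 was lower (1.2%, against 1.06% of all probes) and 0 were higher (against 2.52%), and 0 passed the adjusted p. The gene was Cox6a2, at -1.7 ± 0.65 (unadjusted p = 0.0313, adjusted p = 0.709), and the call was lost without Sham 2 (-1.27), Sham 3 (-1.68), DHI 1 (-1.44) or DHI 3 (-1.36). The median log2 fold change was -0.16, against 0.02 for all probes, and was alike over the complexes, from -0.20 in complex III to -0.12 in complex II. In the mean, 78 genes were lower than in Sham (against 48.2% of all probes) and 5 higher (against 51.8%). In 16 genes (19.3%, against 8.34% of all probes) all DHI values lay below all Sham values, and in 2 above (against 10.3%).

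Uqcrfs1 was among those 16 and had the smallest p of the 83 genes, -0.37 ± 0.14 (unadjusted p = 0.0263), less than the FC limit. Ndufs1 had -0.46 ± 0.21 and Atp5b -0.42 ± 0.19. The median of the 83 genes was -0.02 without DHI 1 and -0.31 without DHI 2, so that most of the distance from Sham lay in DHI 1. For Uqcr11 the 95% interval in DHI versus Sham ran from -1.03 to 0.54, and for Ndufs3 from -0.88 to 0.27, wide enough to hold both no change and a fall close to that in I/R.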

How the data were processed

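Total RNA labelled with Cy3 was hybridised to 9 one-colour arrays, and the authors scanned them and extracted spot intensities with Agilent Feature Extraction 10.7.1.1, per the file headers, with positions on rn4. The deposited intensity used here is the processed signal, from which the scanner software had already taken the background. The table of the whole series deposited by the authors holds log2 values, with a median of 7.56 on each array, that matched quantile-normalized signals (r = 0.99953); their scale and centring follow from that match, and it served as an alternative.

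Control spots and outlier spots (392 to 725 per array) were left out, spots of a probe were averaged, and each array was scaled by its 75th percentile. A probe was tested where every array of some group showed it well above background (23747 of 30367). The 3 groups, each of 3 arrays from separate rats, were compared with limma 3.58.1 (R 4.3.3, data.table, version 1.17.8) in 1 model with 6 residual degrees of freedom, with adjustment by Benjamini-Hochberg over all tested probes. The number of arrays limits the precision. The fit was also run on simulated data with independent noise for each probe and array, which cannot speak to shifts shared by a whole array. An exact permutation test of 3 against 3 arrays cannot reach p < 0.05 (smallest p 0.1) and was not used. Intervals are 95% intervals from that model.

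Named genes were the core subunits, the tissue forms, the largest rise and fall of each complex and list, genes called against the majority, untested names and names of no subunit, with other called genes beside them; 1 gene is counted but not reported here by name. Members, lists and tests were chosen with earlier results of these data known. Gene symbols are those of the array, of which 74 of 84 matched RefSeq (GRCr8) by accession; promoter windows come from RefSeq. Alternatives were quantile normalization, no scaling, normexp (offset 50), the authors' table, other filters, only the groups compared, array weights, the methods' t-test, the mean of probes, each array left out and a replicate block. Slide could not be fitted as a block, because DHI filled slide 2.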

Additional observations from a re-analysis of the deposited data

How the results depend on the processing

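None of the genes called in a comparison turned its sign under any alternative run, whereas of the genes not called, 4 of 41 did so in I/R versus Sham, 49 of 73 in DHI versus I/R and 37 of 82 in DHI versus Sham. Shares in brackets are of all probes called in either direction. In I/R versus Sham (43.1% in the fit used above) the count of 42 lower genes was 9 with no scaling (41.5%). It was 32 to 53 with each array left out (31.7% to 48.6%). At the adjusted p (31.5% in the fit used above), the 37 became 0 with no scaling (0.00421%) and 12 with no filter on dim probes (16.5%). With each array left out the adjusted count was 0 to 49 (0% to 43.2%). In DHI versus I/R (21.9% in the fit used above) the count of 10 became 4 with quantile normalization (21.3%) and 4 in the series table of the authors (21.4%). It was 0 with no scaling (31.3%), 0 with only those groups (9.05%) and 0 with the methods' t-test (1.97%). Array weights gave 39 (50.1%), and leaving out each array gave 0 to 38 (3.95% to 45.2%). At the adjusted p, the 0 became 39 with array weights (49.8%) and 0 to 37 with each array left out (0% to 40.1%). In DHI versus Sham (3.58% in the fit used above) the 1 gene became 12 with no scaling (7.11%) and 0 with the methods' t-test (1.89%). With each array left out it was 0 to 2 (1.45% to 10.6%). At the adjusted p, the 0 became 1 with array weights (8.36%). The cause of these moves was not tested. With a replicate block the counts were 42 in I/R versus Sham (32 at the adjusted p) and 12 in DHI versus I/R; arrays of the same number did not deviate together (r from -0.341 to 0.476), so that the numbers are only names. With no scaling the median over all probes shifted to 0.10 for I/R against Sham, -0.36 for DHI against I/R and -0.25 for DHI against Sham, where those of the 83 genes were -0.40, -0.06 and -0.43. Cox8b, Cox6a2 and Uqcrq are dim or vary widely, and their values are the least certain.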
